A study of Mus musculus with 96 samples.

Results

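The liver libraries of 7 male mice fed ad libitum (AL) were compared with the muscle and cortex libraries that carry the same mouse numbers, 2 to 8. These 21 libraries are 7 per tissue, of 96 in the series, and were chosen by tissue, diet, sex and number from the labels; mouse 1 was left out and the choice gives no reason. The genes higher in liver than in each of the other tissues are the result described here. The study fed male C57BL/6 mice normal chow, either freely or with a daily fast of 16 h (intermittent fasting, IF), from 6 weeks of age and for 4 months. The labels add females on both diets, whose strain, age and schedule are not given in the sources used here. Each group of sex and diet has 8 numbers, with a liver, a muscle and a cortex library for each.

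The total count per library ran from 26097314 to 46889676 over the 21 libraries. Counts were scaled between libraries by the trimmed mean of M values (TMM), and levels of 1 gene across tissues are given as CPM, counts set to the same scaled library total. Levels of different genes within liver are given as TPM, counts divided by the gene length of the table and scaled to the same total in each library. Where a gene had no count in a tissue, the fold is a lower bound set against 3 counts over the 7 libraries, and with 1 to 3 counts the ratio is given with its counting interval; bounds and intervals cover counting error only.

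The liver makes most of the proteins of blood plasma, packages lipid into lipoproteins, clears ammonia through the urea cycle, makes bile acids, and holds and releases glucose. Most of this is the work of hepatocytes, which share the organ with bile duct cells, sinusoidal endothelium, stellate cells and the resident macrophages called Kupffer cells. Muscle fibres and neurons use other forms of many of the same enzymes.

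The labels were checked against cell type markers. The summed level of 10 hepatocyte markers had a lowest, median and highest value of 57457, 72283 and 88161 CPM in the 7 livers, 2.12, 6.13 and 16.4 CPM in muscle and 4.11, 19.6 and 2036 CPM in cortex. All 7 livers lay far above every other library, and the high cortex values were those of mouse 4 and mouse 2, almost wholly from Ttr. The 10 markers of skeletal muscle fibres summed to 1.04, 2.17 and 3.14 CPM in liver and 250690, 264610 and 283380 CPM in muscle. The 8 neuron markers summed to 5.17, 7.82 and 12.4 CPM in liver, 506, 575 and 647 CPM in muscle, mainly Camk2a, and 6293, 6979.6 and 7688 CPM in cortex, with Slc17a7 at 0 in every liver. The sum of each of these lists was highest in the tissue it marks. The Y-linked Ddx3y had 889 to 2598 counts and Xist at most 11 counts in the 21 libraries, all from mice labelled male.

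Of 56748 genes in the table, 19557 had enough counts to be tested. Enough counts in a single tissue sufficed, so a gene with counts in liver alone could only come out higher in liver or not called. Liver was higher than both other tissues for 5098 genes, 26.1% of those tested, and lower than both for 5266, or 26.9% (edgeR quasi-likelihood test with Benjamini-Hochberg adjustment). Against muscle alone 7498 genes were higher in liver (38.3%) and 7795 lower (39.9%). Against cortex alone 7312 were higher (37.4%) and 9018 lower (46.1%), and with library size alone in place of TMM 4665 were higher and 12011 lower. The median log2 difference over all genes tested was -0.04 against muscle and -0.26 against cortex. In 3951 genes (20.2%) all 7 livers lay above the other 14 libraries, and in 3242 (16.6%) all 7 lay below them. In bulk tissue, fewer cells of a type and less RNA per cell cannot be told apart, and this holds for every difference below.

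**Figure D1:**
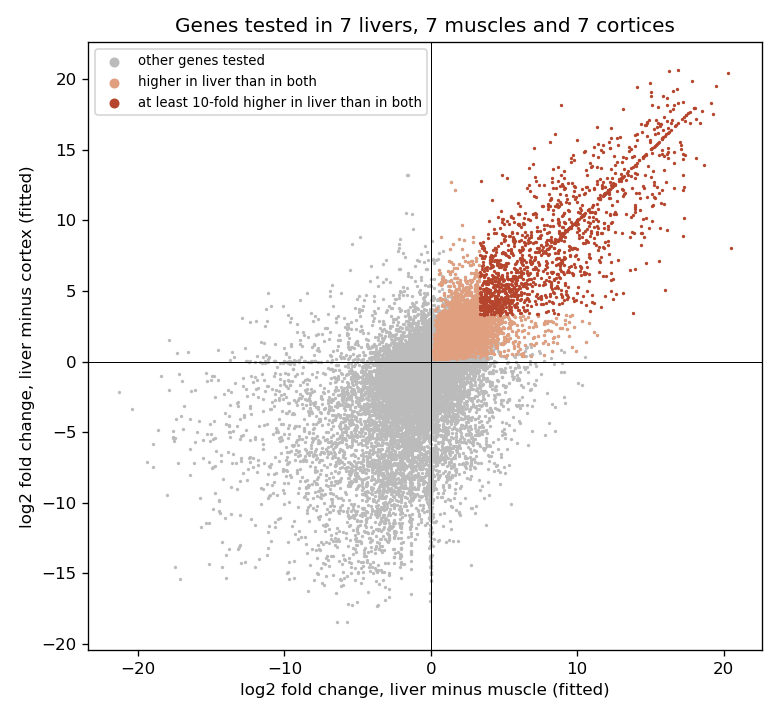
Each of the 19557 genes tested is a point, with its fitted log2 difference of liver minus muscle on the horizontal axis and of liver minus cortex on the vertical axis, over 7 libraries per tissue. The 5098 genes higher in liver lie at the upper right; fitted values of genes with no count outside liver depend on the fit's prior count and line up along the diagonal.

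A smaller set of 1435 genes, 7.34% of those tested, was at least 10-fold higher in liver than in both other tissues. Of these, 1002 were protein-coding genes, of 15581 tested, and 305 were long non-coding RNAs, of 2467 tested. In 1425 genes of the set all 7 livers lay above the other 14 libraries, as in 20.2% of all genes tested. No read was counted for 270 of them in any muscle library, for 248 in any cortex library, and for 140 in either. Their median level in liver was 17.8 TPM, with 361 at or above 100 TPM and 60 at or above 1000 TPM. Together they held 41.6% ± 1.30 (SD, n = 7) of all counts in liver, against 0.299% ± 0.0251 in muscle and 0.833% ± 0.154 in cortex. The set was chosen by its difference in these same libraries, so little overlap and a larger liver share follow from the choice. At the edge of the set, Syvn1, a ubiquitin ligase of the endoplasmic reticulum, lay just inside with log2 differences of 3.64 ± 0.26 (SE) against muscle and 3.32 ± 0.25 against cortex, over livers at 152, 338 and 923 CPM. The long non-coding gene Gm44686, which overlaps another gene, lay just outside with 3.32 ± 0.88 against muscle, at 0 to 1.62 CPM in liver.

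Apoa2 (ENSMUSG00000005681, chr1:171052623-171053948 of GRCm39), a protein of high-density lipoprotein, had the highest liver level of these 1435 genes, at 51334 ± 6407 TPM (SD, n = 7). Albumin, Alb (ENSMUSG00000029368, chr5:90608756-90624461), the main carrier protein of plasma, followed at 27138 ± 6703 TPM. Apoc1 stood at 24731 ± 3369.8 TPM, Apoe at 20011 ± 2752 and Apoa1 at 19892 ± 4245, all of them apolipoproteins. Alb and Apoc1, and likewise Apoe and Apoa1, differed in mean by less than the SD of either gene. Their order within single livers was not tested and is not taken as settled.

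Alb had a lowest, median and highest level of 28102, 41229 and 51566 CPM in the 7 livers, 0.115, 0.432 and 1.28 CPM in the muscles and 0.0180, 0.168 and 0.545 CPM in the cortices. The groups did not come near each other, and its log2 difference was 16.56 ± 0.62 against muscle and 17.88 ± 0.64 against cortex (adjusted p = 3.14e-14 and 1.51e-14). Apoa2 ranged over 14794, 17648 and 25320 CPM in liver, 0.0709, 0.252 and 0.520 CPM in muscle and 0.156, 0.751 and 1.13 CPM in cortex. Every muscle and cortex library thus held reads of Apoa2, 2 to 14 counts in a muscle and 9 to 66 in a cortex. Fabp1, the fatty acid-binding protein of liver, was at 3991, 5613 and 6732 CPM in liver, and its highest value elsewhere was 0.297 CPM in muscle. Hamp, which encodes the iron-regulating hormone hepcidin, ranged from 1106 to 3009 CPM in liver and reached at most 0.106 CPM in muscle.

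Some of the 15 most abundant genes of the set were far from absent elsewhere. Apoe, which astrocytes also make, had 19198, 30081 and 35041 CPM in liver, 101, 205 and 274 CPM in muscle and 1299, 1739.6 and 2101 CPM in cortex, so that its log2 difference was 4.04 ± 0.22 against cortex. B2m, the light chain of class I histocompatibility molecules, was at 2731, 3372 and 3835 CPM in liver, 114, 153 and 165 CPM in muscle and 60.6, 68.3 and 98.2 CPM in cortex. Both genes stood at least 10-fold higher in liver, with no overlap between tissues. Ttr, the carrier of thyroxine and retinol-binding protein, was at 6871, 8407 and 9825 CPM in liver and 2.56, 18.1 and 2034 CPM in cortex. Its cortex values by mouse number from 2 to 8 were 371, 28.5, 2034, 11.9, 18.1, 15.9 and 2.56 CPM. The cortices of mouse 4 and mouse 2 stood far above the other 5, and all 7 lay below every liver.

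**Figure D2:**
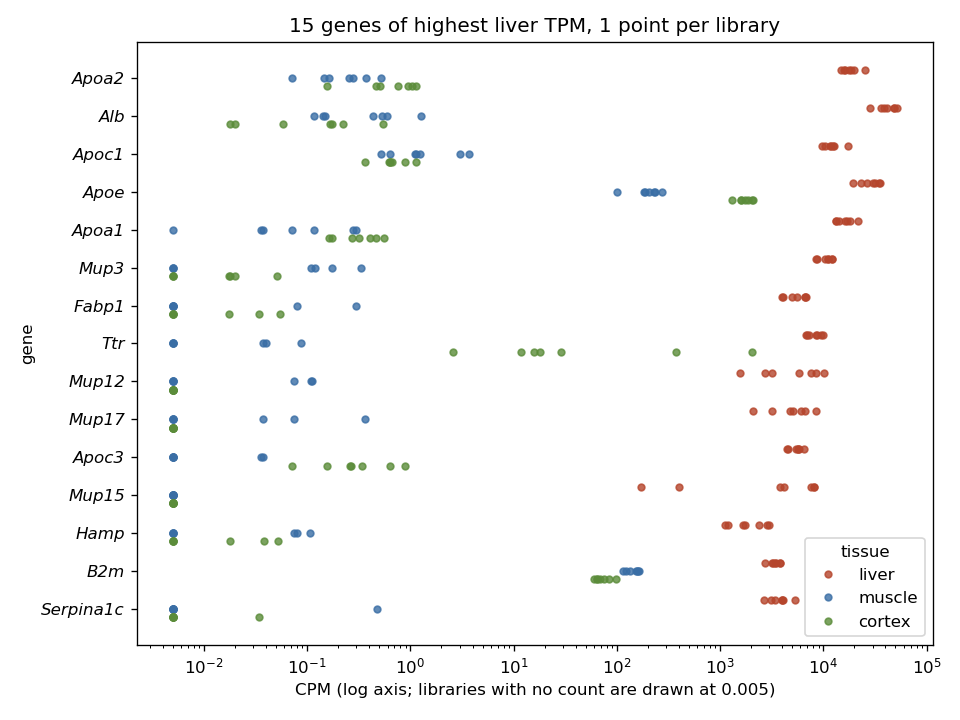
Each point is 1 library, with CPM on a log axis, for the 15 genes of highest liver TPM at least 10-fold higher in liver, 7 libraries per tissue. The livers lie to the right of the 14 other libraries for every gene, which the choice of the 15 genes required. Ttr, Apoe and B2m come nearest, and libraries with no count are drawn at the left edge.

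Of the plasma carriers and protease inhibitors, all 26 members tested were higher in liver than in both tissues, and all 26 at least 10-fold. Of all genes tested, 26.1% and 7.34% were. Their median log2 difference was 14.55 against muscle and 15.66 against cortex, with genes without counts set at their bounds. Ambp, the precursor of the inhibitor bikunin, had 2111, 2406 and 2811 CPM in liver. It had 1 count over the 7 muscles and 5 over the 7 cortices, a ratio to muscle of 413150-fold (95% counting interval 74151 to 16318000). Serpina1c, an alpha-1-antitrypsin gene, was at 4146 ± 594 TPM in liver and shares much of its sequence with its neighbours, so that the division of reads among them is uncertain. A1bg, also listed, had no count in any liver and was not tested.

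All 23 hepatic clotting and fibrinolysis factors were at least 10-fold higher in liver, against 7.34% of all genes tested. Their median differences were 12.90 and 13.04 on the log2 scale. F2, which encodes prothrombin, had 726, 1048 and 1158 CPM in liver, 0, 0.142 and 0.298 in muscle and 0, 0.0170 and 0.0180 in cortex. Fgb, a fibrinogen chain, was at 1779, 2158 and 2484 CPM in liver and at most 0.372 CPM in any other library. Kng1, the precursor of bradykinin, had 3 counts over the muscles and 2 over the cortices, and stood 168180-fold (95% counting interval 57549 to 815530) above muscle.

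Of 11 clotting genes made mainly by endothelial or other cells, 4 were higher in liver than in both tissues, near the 26.1% of all genes tested, and 6 were lower than in both, against 26.9%. Vwf, the von Willebrand factor of endothelium and platelets, was at 3.76, 7.01 and 9.14 CPM in liver, 18.04, 19.2 and 25.4 in muscle and 8.76, 10.4 and 11.9 in cortex. Its livers overlapped the cortices and lay below every muscle, with log2 differences of -1.69 ± 0.13 and -0.73 ± 0.13 (adjusted p = 1.26e-09 and 5.42e-05).

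Of 26 complement genes tested, 21 were higher in liver than in both and 20 of those at least 10-fold (26.1% and 7.34% of all genes). C3, the central component, was at 1464, 2289 and 2707 CPM in liver, 43.5, 60.5 and 73.4 in muscle and 0.0520, 0.252 and 0.481 in cortex. C9, of the membrane attack complex, was at 259, 283 and 347 CPM in liver and at most 0.144 CPM in muscle. The members not higher were the chains of C1q, which macrophages and microglia make (C1qa, C1qb and C1qc), together with C7 and Cfd. Cfb was not tested: it had 0 to 24 counts per liver, and it overlaps the gene Gm20547 on the same strand, which had no count in any of the 21 libraries.

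Of 24 genes of apolipoproteins and lipoprotein processing, 22 were higher in liver than in both, against 26.1% of all genes tested. Their median differences were 10.41 against muscle and 10.18 against cortex. Apob, the structural protein of very-low-density lipoprotein, was at 1322, 1378 and 1649.9 CPM in liver, with 1 count in muscle and 3 in cortex. Apoc3, an inhibitor of lipoprotein lipase, was at 4495, 5655 and 6547 CPM in liver and 0.0719, 0.268 and 0.886 CPM in cortex. The exceptions were Apod and Pltp. Apod, an apolipoprotein related to the lipocalins, had no count in any of the 7 livers, against 35.9, 51.4 and 69.6 CPM in muscle and 104, 124 and 174 CPM in cortex. Pltp, the phospholipid transfer protein, was higher than in muscle and did not pass the test against cortex (-0.36 ± 0.17, edgeR adjusted p = 0.0596). It passed as lower than in cortex under 5 alternatives: library size alone (-1.21), the DESeq2 test (-0.40), its size factors in edgeR (-0.40), all 8 males (-0.50) and mouse 8 left out (-0.54).

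All 19 major urinary protein (Mup) genes tested, of 22 in the table, were at least 10-fold higher in liver, against 7.34% of all genes tested. Of the 19, 7 had no count in muscle and 16 none in cortex. Members with counts in liver alone reached the test through liver only, so this share and 7.34% do not compare evenly. Together the 19 genes took 3.27% ± 0.527 (SD, n = 7) of liver counts. These small lipocalins carry pheromones into the urine of mice. Their sequences are nearly the same, and how reads matching several of them were treated is not stated, so the values of single Mup genes are uncertain. Mup3, which had the smallest SD of log2 CPM over the livers in the family (0.21), was at 8435, 10981 and 12134 CPM, and at most 0.334 CPM in muscle. Mup15 had no count in any muscle or cortex library, and was at least 300290-fold higher than in muscle and at least 607400-fold higher than in cortex. Its livers, by mouse number from 2 to 8, stood at 3824, 8134, 4119, 8213, 402, 7629 and 173 CPM, with mouse 6 and mouse 8 far below the other 5.

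Single livers stood apart in other Mup genes. Mup19 was at 1783, 16.4, 3711, 3649, 1711, 3798 and 2595 CPM by mouse number from 2 to 8, lowest in mouse 3. Mup1 was at 32.9, 2464, 68.5, 108, 139, 81.98 and 64.8 CPM in the same order, highest in mouse 3, so the liver with the least Mup19 was the liver with the most Mup1. The sum over the family varied far less than these single genes, from 2.49% to 3.88% of the liver counts.

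**Figure D3:**
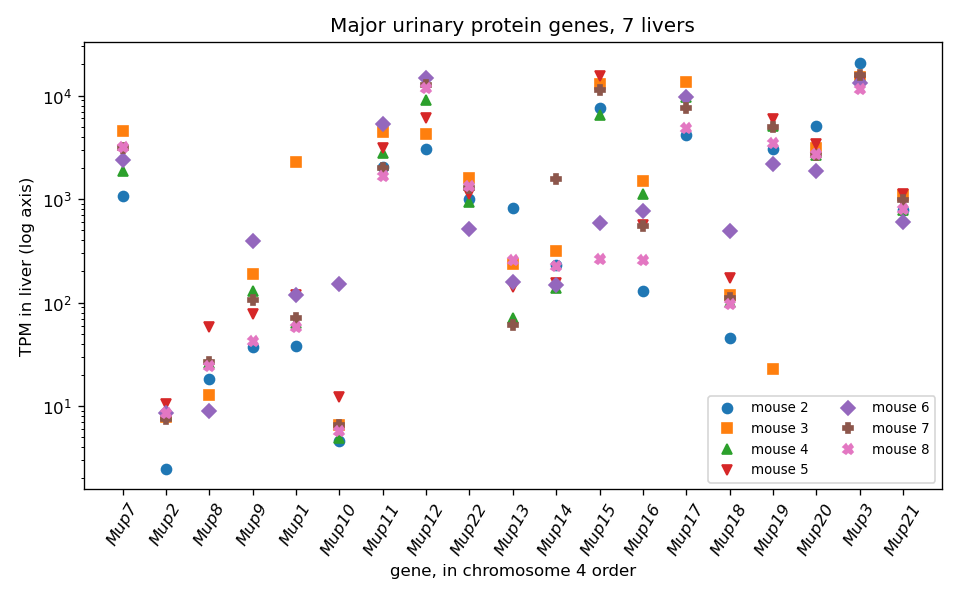
Each point is the level of 1 Mup gene in 1 of the 7 livers, in TPM on a log axis, with the 19 genes in their order on chromosome 4. The livers lie close together for Mup3, Mup20 and Mup21 and spread most for Mup19, Mup15, Mup1 and Mup10.

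All 8 urea cycle genes were higher in liver than in both tissues, 7 of them at least 10-fold (26.1% and 7.34% of all genes). Their median differences were 11.22 against muscle and 8.26 against cortex. Cps1, which fixes ammonia in the first step, was at 551, 639 and 766 CPM in liver, 0, 0 and 0.149 in muscle and 0.0396, 0.188 and 0.366 in cortex. Otc, the next mitochondrial enzyme, was at 341, 451 and 593 CPM in liver and at most 0.108 CPM in muscle. Ass1, which joins citrulline to aspartate, was present in every tissue, at 1357, 1815 and 2328 CPM in liver, 1.08, 1.51 and 2.53 in muscle and 15.9, 22.4 and 28.4 in cortex.

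Of 34 genes of amino acid catabolism, 31 were higher in liver than in both and 28 at least 10-fold (26.1% and 7.34% of all genes). Tat, the first enzyme of tyrosine breakdown, was at 534, 758 and 1209 CPM in liver and at most 0.142 CPM elsewhere. Hpd, which acts later in the same breakdown, was at 1919, 2214 and 3014 CPM in liver. Bcat2 and Bckdha, which act on branched-chain amino acids, were exceptions. The log2 difference from muscle was 0.01 ± 0.10 for Bcat2 (edgeR adjusted p = 0.942) and -2.53 ± 0.15 for Bckdha, which was higher than in cortex with TMM (0.61 ± 0.14) and did not pass the test with library size alone (-0.24, edgeR adjusted p = 0.141). Got1, the cytosolic aspartate aminotransferase, was lower in liver than in both, at 54.4, 95.9 and 138 CPM against 355, 391 and 477 in muscle and 228, 266 and 294 in cortex.

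All 11 bile acid synthesis genes tested were higher in liver, 8 of them at least 10-fold (26.1% and 7.34% of all genes). Cyp7a1, the rate-limiting enzyme, was at 13.6, 33.99 and 61.1 CPM in liver and Cyp8b1, which sets the share of cholic acid, at 162, 266 and 322 CPM. The ratio of the highest to the lowest liver was larger for Cyp7a1 than for Cyp8b1. Hsd3b7 was not tested, with 6 to 105 counts per liver. It overlaps the gene Gm49388 on the same strand, which had no count in any liver. Of 12 bile transport genes tested, 11 were higher, and Slc51a was not. Slc10a1, which takes bile acids up from blood, was at 190.2, 215 and 281 CPM, and Abcb11, which exports them into bile, at 447, 584 and 666 CPM.

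Of 6 gluconeogenesis genes, 4 were higher in liver than in both, against 26.1% of all genes tested. Pck1, the cytosolic entry enzyme, was at 397, 653 and 866 CPM in liver, 1.302, 4.35 and 24.8 in muscle and 0, 0.0171 and 0.0540 in cortex. G6pc, the glucose-6-phosphatase of liver, was at 158, 218 and 319.7 CPM in liver, with 6 counts in muscle and 1 in cortex. Pck2, the mitochondrial form of Pck1, was lower than in cortex (-1.23 ± 0.13), and Slc37a4, the glucose-6-phosphate transporter, was lower than in muscle (-1.28 ± 0.11).

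Of 6 genes of ketone body synthesis, 4 were higher in liver than in both, against 26.1% of all genes tested. Acat1 and the transporter Slc16a1 were lower than in muscle, a call that both lost with library size alone (-0.16 and -0.20). Of 2 genes of ketone body use, 1 was higher in liver than in both and 1 lower. The lower was Oxct1, which other tissues need to use ketone bodies. It was at 1.54, 2.700 and 3.11 CPM in liver against 232, 285 and 392 in muscle and 147, 151 and 159 in cortex. All 15 nuclear genes of the respiratory chain were lower in liver than in muscle; against cortex 7 of them were lower and 5 higher, near the shares of all genes tested (46.1% and 37.4%), and with library size alone 12 were lower and 2 higher. The mitochondrial genome took 20.6% ± 3.42 (SD, n = 7) of the counts in liver. Its share was 11.4% ± 0.630 in the muscles and 7.60% ± 1.68 in the cortices.

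Of 76 cytochrome P450 genes of families 1 to 4, 56 were tested. Of those, 47 were higher in liver than in both other tissues and 1 was lower. The shares of all genes tested were 26.1% and 26.9%. Cyp3a11 was at 1289.7, 2239 and 4184 CPM in liver, with no count in cortex. Cyp2d9 was at 1413, 1997 and 2453 CPM and had no count in muscle, at least 131280-fold higher in liver. All 9 UDP-glucuronosyltransferase genes tested, of 16 in the table, were higher in liver than in both, against 26.1% of all genes tested. So were 6 of 8 sulfotransferases tested, of 21, and 17 of 20 glutathione S-transferases tested, of 22. Of the P450 genes tested, 18 had no count in muscle and 16 none in cortex. Of the UDP-glucuronosyltransferase genes tested, it was 4 and 7. Members with counts in liver alone reached the test through liver only, so these shares and 26.1% do not compare evenly. Members of these families sit beside close copies, and the reads they share make single values uncertain. Ces3a, a carboxylesterase, was at 3036, 3389 and 3928 CPM and 5 counts in all muscles.

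Of 24 hepatic transcription factors, 23 were higher in liver than in both, against 26.1% of all genes tested. Their median differences were 8.15 against muscle and 8.97 against cortex. Hnf4a, a nuclear receptor central to hepatocyte identity, was at 279.7, 376 and 509.9 CPM in liver, with 2 counts over the muscles and 1 over the cortices. Foxa3 was at 23.7, 33.1 and 43.3 CPM and Cebpa at 268, 375 and 451 CPM, with Cebpa at 5.71, 13.1 and 32.3 CPM in muscle. Nr1h4, the bile acid receptor, was at 216, 291 and 327 CPM in liver and Nr1i3, a xenobiotic receptor, at 47.00, 55.7 and 85.5 CPM. Rxra, their shared partner, was the exception: at 169.8, 203 and 228 CPM it lay below every muscle (300, 313 and 339.6 CPM) and above every cortex (17.3, 24.2 and 29.1 CPM).

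Of 23 liver hormones and secreted regulators, 21 were higher in liver than in both, and of 15 receptors and iron-sensing genes 13. The share of all genes tested was 26.1%. Igf1, a growth factor that liver releases into the circulation, was at 852, 1012 and 1316 CPM in liver, 17.96, 24.1 and 30.4 in muscle and 3.96, 4.62 and 7.14 in cortex. Igfbp2, which binds it, differed by 2.71 ± 0.31 against cortex, where it stood at 25.98, 37.8 and 68.5 CPM. Hjv, a co-receptor that controls Hamp, was highest in muscle at 1119.5, 1264 and 1364 CPM, against 246, 272 and 327 CPM in liver.

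Paired forms of enzymes and carriers were listed by the tissue they are named for. Of 21 liver forms, 16 were higher in liver than in both, against 26.1% of all genes tested. Pklr had no count in muscle and was at least 3285-fold higher in liver, where its levels ran over 15.8, 51.05 and 97.7 CPM. Slc2a2, the low-affinity glucose transporter, likewise had no count in muscle and stood at 131, 202 and 261 CPM. Mat1a, which makes S-adenosylmethionine, was at 972, 1248 and 1715 CPM in liver. Of the muscle forms, 12 were lower in liver than in both and 11 were neither; of the brain or general forms, 12 were lower and 4 neither. Of all genes tested, 26.9% were lower in liver than in both. Pkm, G6pc3, Gys1 and Mat2a are listed as both and counted in each.

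The liver forms that were not higher in both were Pfkl, Eno1, Phkg2, Cox6a1 and Cox7a2. Pfkl was at 13.6, 20.95 and 24.05 CPM in liver and 115, 119 and 138 CPM in cortex, so it lay below every cortex. Eno1 differed from muscle by 0.02 ± 0.11 (edgeR adjusted p = 0.903) and from cortex by -2.17 ± 0.12. Phkg2 and Cox6a1 were higher than in muscle and did not pass the test against cortex (0.05 ± 0.14 and 0.27 ± 0.16). Cox7a2 differed from muscle by -1.28 ± 0.14 and from cortex by 0.07 ± 0.14. With library size alone in place of TMM, the difference from cortex turned and passed the test as lower in liver for Phkg2 (-0.79), Cox6a1 (-0.59) and Cox7a2 (-0.78), and with mouse 4 left out Cox6a1 passed as higher (0.39).

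**Figure D4:**
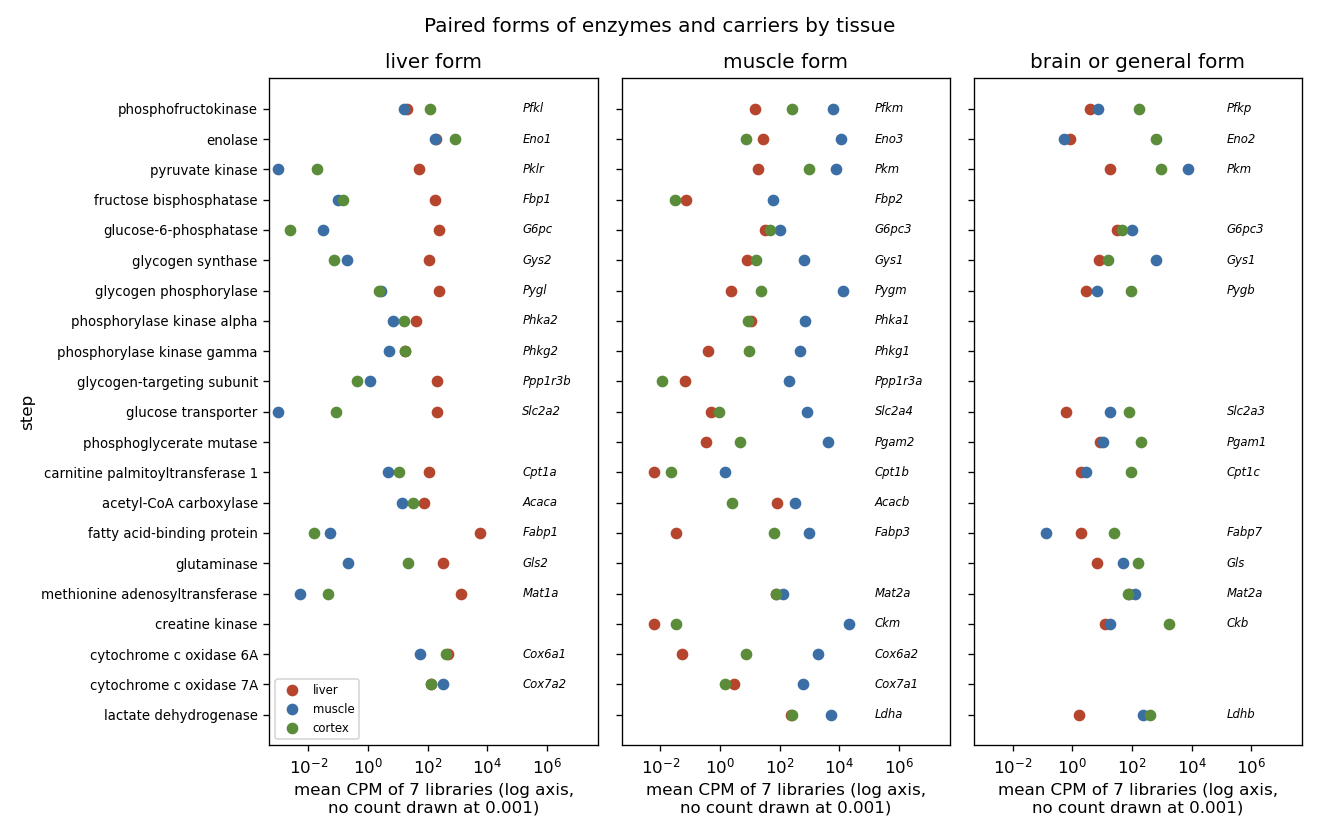
Each point is the mean CPM of 7 libraries on a log axis for the liver form, the muscle form and the brain or general form of those paired enzymes and carriers that are drawn, with a mean of 0 drawn at 0.001. For the liver forms the liver points lie to the right of both other tissues except for Pfkl and Eno1, where cortex is higher, and Cox7a2, where muscle is higher; those of Phkg2, Cox6a1 and Cox7a2 lie close to cortex, and with library size alone these 3 pass the test as lower than in cortex.

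Hepatocyte genes are known to differ across the lobule. Higher in liver than in both were 26.1% of all genes tested. Of 10 periportal genes, 9 were higher in liver than in both, with Ctsc the exception. Of 10 pericentral genes, 7 were higher, and Axin2, Glul and Slc1a2 were not. Glul, glutamine synthetase, was at 587, 697 and 962 CPM in liver and 697, 839.8 and 903 CPM in cortex, overlapping groups with a log2 difference of -0.18 ± 0.12 (edgeR adjusted p = 0.193). With library size alone that difference was -1.03 and passed the test. Cyp2e1, a pericentral gene, was at 1701, 3271 and 4612 CPM in liver, and Cyp1a2, another, at 417, 634 and 773 CPM.

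Of the Kupffer cell markers 5 of 7 were higher in liver than in both, and of the sinusoidal endothelium markers 7 of 8. Of all genes tested, 26.1% were. The members not higher were Adgre1 and Csf1r of the Kupffer cell list and Lyve1 of the endothelium list. Csf1r was the most abundant Kupffer cell marker in muscle and in cortex, with means of 15.8 and 53.2 CPM. The Kupffer cell list summed to 156, 204 and 302 CPM in liver, 10.8, 19.9 and 24.7 in muscle and 51.2, 55.8 and 62.03 in cortex, where Cd5l, Clec4f and Vsig4 were at 0. Clec4f, its most abundant gene in liver, had no count in cortex and 1 in muscle. The sinusoidal endothelium list summed to 300.4, 314 and 331 CPM in liver and 44.2, 62.4 and 69.1 CPM in muscle. Stab2, an endocytic receptor of that endothelium, was at 75.6, 78.4 and 88.8 CPM in liver and 24.6, 30.6 and 35.3 CPM in muscle. For both lists the sum was higher in liver in 7 of 7 numbers (exact sign-flip test paired by library number, p = 0.0156, the smallest that flips of 7 differences allow; adjusted p = 0.0177 over 26 tests).

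Erythrocyte markers summed to 440.1, 613 and 993 CPM in liver, 257, 462 and 1169.9 in muscle and 115, 169 and 316 in cortex. The liver sum was above muscle in 5 of 7 numbers, by 0.45 ± 0.46 on the log2 scale (SD, exact sign-flip p = 0.0781, adjusted 0.0813), and above cortex in 7. Its members went both ways against muscle, with 3 higher in liver and 2, Hbb-bs and Hbb-bt, lower. Of all genes tested, 38.3% were higher than in muscle and 39.9% lower. Mouse 2 had the highest sum in each tissue, and in muscle it lay above every liver. The lymphocyte sum was above muscle in 6 of 7 numbers, by 0.87 ± 0.62 (exact p = 0.0469, adjusted 0.0508), with Cd3e the most abundant in muscle. Their part in the results was not tested.

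Of the other lists, 4 of 5 bile duct (cholangiocyte) markers and 4 of 7 stellate cell markers were higher in liver than in both, against 26.1% of all genes tested. With library size alone, 3 of the stellate cell markers were higher, and 1 in place of 3 bile duct markers was at least 10-fold higher. The astrocyte list held 1 gene higher in liver, Aldh1l1, a folate enzyme that hepatocytes also carry, at 764, 831 and 946 CPM in liver and 31.3, 36.04 and 43.1 CPM in cortex. Lower in liver than in both, as were 26.9% of all genes tested, were 3 of the 5 astrocyte and 2 of 4 oligodendrocyte markers; the 1 of 3 microglia and 1 of 5 adipocyte markers are close to that share. The adipocyte sum in muscle was 40.99, 125 and 429 CPM, highest in mouse 2, mainly from Cfd. Of the pancreatic acinar list only Pnlip had enough counts to be tested, at 0.221, 0.674 and 1.29 CPM in cortex and 0.0753 CPM at most in liver.

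Position on the genome, which did not enter the choice of genes, set many of the members side by side. Of 15581 protein-coding genes tested, 6.43% were at least 10-fold higher in liver. In table order these formed 139 runs of neighbours holding 403 genes, and 15 runs had 5 or more. The longest held 19 Mup genes at chr4:60066469-62069100 of GRCm39. Next came 11 Cyp2c genes at chr19:38995463-40175777, 10 Ugt2 and Sult1 genes at chr5:87037626-87716886, 8 Cyp2d genes at chr15:82254728-82678495 and 8 Serpina genes at chr12:103581045-103956216. These 5 runs hold families of related genes, whose reads may be shared. Among the other runs, Alb lay with Afp, Afm, Albfm1 and Rassf6, Apoa1 with Apoc3, Apoa4 and Apoa5, and Fga with Fgb, Fgg and Lrat.

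Promoter windows of RefSeq, 250 bases before to 50 after each gene start in GRCm38.p6, were matched to 900 of the 1435 gene identifiers, through 897 RefSeq symbols with 1140 windows. The letters GTTAATNAT of HNF1 were found on either strand in 3.68% of these windows, in 0.544% of the 17110 windows of genes tested and in 0.801% of all 32851 windows. In the same order, CAAAGTCCA of HNF4 was found in 2.46%, 0.497% and 0.475%, TGTTTAC of FOXA in 7.72%, 2.93% and 3.65%, and TTGCNNAA of C/EBP in 18.4%, 9.27% and 10.8%. TATAAA was in 17.8%, 8.48% and 13.6%. GGGCGG of Sp1 was in 29.8%, 55.96% and 35.7%. TGACGTCA of the cyclic AMP element was in 0.877%, 2.62% and 1.79%. In the 332 windows of genes of the set at or above 100 TPM, the shares were 5.12% for HNF1, 2.71% for HNF4, 4.22% for FOXA, 22.3% for C/EBP, 18.98% for TATAAA, 26.8% for Sp1 and 0.904% for the cyclic AMP element; none of these differences in share was tested. The windows of Alb (chr5:90460620-90460919, plus strand), Fga, a fibrinogen chain (chr3:83025903-83026202, plus), Cyp8b1 (chr9:121916256-121916555, minus) and Cyp3a11 (chr5:145879805-145880104, minus) are shown because the text describes these genes and the windows carry different letters. Capitals mark HNF1 and C/EBP letters in Alb and Fga, HNF4 and TATA in Cyp8b1, and HNF4, FOXA and TATA in Cyp3a11, on either strand, with no overlap between them; Sp1 letters, also found for Cyp3a11, are not marked. A match is a description of letters, not a site or a cause.
Alb: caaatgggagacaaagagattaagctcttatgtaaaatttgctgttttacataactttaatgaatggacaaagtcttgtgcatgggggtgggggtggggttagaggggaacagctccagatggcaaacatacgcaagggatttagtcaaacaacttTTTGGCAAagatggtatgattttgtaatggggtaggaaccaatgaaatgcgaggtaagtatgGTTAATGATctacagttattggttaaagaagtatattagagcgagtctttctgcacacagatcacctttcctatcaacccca
Fga: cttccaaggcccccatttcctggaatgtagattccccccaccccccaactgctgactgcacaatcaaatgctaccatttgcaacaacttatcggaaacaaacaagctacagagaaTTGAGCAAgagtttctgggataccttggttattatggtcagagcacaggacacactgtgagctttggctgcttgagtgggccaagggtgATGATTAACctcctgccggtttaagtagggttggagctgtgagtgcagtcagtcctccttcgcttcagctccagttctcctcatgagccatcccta
Cyp8b1: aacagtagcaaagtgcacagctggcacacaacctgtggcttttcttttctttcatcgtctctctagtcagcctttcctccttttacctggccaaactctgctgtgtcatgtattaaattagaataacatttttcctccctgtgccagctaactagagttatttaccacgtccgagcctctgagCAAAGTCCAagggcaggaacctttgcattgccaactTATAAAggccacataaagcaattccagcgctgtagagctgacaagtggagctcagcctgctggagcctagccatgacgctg
Cyp3a11: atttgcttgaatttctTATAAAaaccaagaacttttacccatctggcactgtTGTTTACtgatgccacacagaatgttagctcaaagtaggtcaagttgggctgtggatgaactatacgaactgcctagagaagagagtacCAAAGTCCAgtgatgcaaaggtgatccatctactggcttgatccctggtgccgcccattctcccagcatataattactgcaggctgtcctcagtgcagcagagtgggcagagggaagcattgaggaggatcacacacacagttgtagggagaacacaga

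Levels also varied among the livers. Over the 844 genes of the set with at least 10 TPM, the SD of log2 CPM over the 7 livers had a median of 0.27, and was above 1 in 25 genes. Mup19, Mup15, Mup1 and Mup10 were 4 of the 5 most variable, with Derl3, an endoplasmic reticulum protein, the other. Derl3 was at 173, 135, 10.8, 39.3, 5.72, 56.7 and 14.8 CPM by mouse number from 2 to 8, highest in mouse 2 and mouse 3. The steadiest were Gimap9, Proc, C1rl, Apol9b and Cyp2f2. Proc, which encodes the anticoagulant protein C, kept to 952, 1034 and 1091 CPM.

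Libraries the choice of genes did not use gave the same comparison in other mice. In AL females, mice 25 to 32, 5048 of 19580 genes tested were higher in liver than in both (25.8%). Of the 5098 male genes, 4316 were among them, 84.7% of the male genes and 85.5% of the female ones. In IF males, mice 9 to 16, 4746 of 19391 genes were higher (24.5%), and 3950 were shared, 77.5% of the AL and 83.2% of the IF genes. Of the 1435 genes at least 10-fold higher in AL males, 1321 were higher in females and 1263 in IF males; 15 and 11 were tested there and not higher. At least 10-fold higher there were 1173 of them (81.7%) in females and 1089 (75.9%) in IF males.

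The difference between the sexes was tested itself. Strain, age and schedule of the females are not given, so sex cannot be told apart from differences in these. The liver contrast was larger in females for 611 of 19606 genes (3.12%) and smaller for 756 (3.86%), with the same direction against both tissues. Elovl3, a fatty acid elongase, was at 469.7 ± 54.5 CPM (SD, n = 7) in male livers and 1.78 ± 1.497 CPM (n = 8) in female livers, on the scale of both sexes together. Its contrast with muscle differed by -8.45 ± 0.46 (adjusted p = 2.46e-14). Mup21 was at 403 ± 83.96 and 6.71 ± 2.91 CPM. Cux2, a repressor known from female liver, was at 0.913 ± 0.404 CPM in males and 108 ± 43.9 CPM in females, and its contrast with muscle differed by 6.52 ± 0.43 (edgeR adjusted p = 1.37e-12). Among genes with at least 10 CPM in liver of either sex, differences were ranked by the smaller of the muscle and cortex values. Of the 10 largest, the others were Nat8f5, Zfp992, Gm4956 and Lama3, lower in female liver, and Cyp2a22, Mt1 and Hao2, higher. In males, Mup21 and Nat8f5 had no count in muscle, and Mup21 and Gm4956 had none in cortex. In females, Cyp2a22 and Hao2 had no count in muscle, and Cyp2a22 had none in cortex. Fitted values there depend on the prior count, so the places of these genes are not exact.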

How the data were processed

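RNA of liver, muscle and cortex was sequenced as paired-end, directional poly-A libraries. Per the labels and the study's methods, the authors aligned reads with Hisat2 2.0.5 to GRCm39 and deposited whole-number counts per gene from featureCounts 1.5.0-p3. The strand setting and the treatment of reads with several matches are not given in the sources used here, so paralogs, overlapping and antisense genes are uncertain. The deposited table also holds 1 other value per gene, its length, used for TPM.

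The 21 libraries, with total counts of 26097314 to 46889676, entered 1 fit in edgeR 4.0.16 (R 4.3.3, limma 3.58.1): filterByExpr by tissue (minimum count 10), TMM, a quasi-likelihood test with tissue and mouse number as terms, and Benjamini-Hochberg adjustment over 19557 genes. A gene was called when its adjusted p was under 0.05 in both contrasts with the same sign. The number comes from the labels, and no source says more about animals shared between tissues. Females, IF males and the difference between the sexes were fitted in the same way. Marker sums were compared by exact sign flips, two-sided. The scripts were tested on simulated data. DESeq2 1.42.0, other scalings, filters, designs and libraries left out were alternatives. Tables and plots were made in Python 3.11.15 with pandas 2.3.3, numpy 2.4.6 and matplotlib 3.10.9. No libraries of the same group had identical counts.

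Genes named are the 15 of highest liver TPM and the 10 of largest difference among those at least 10-fold higher, the 5 most and 5 least variable over the livers, members of lists of pathways, families, paired enzyme forms and cell markers, members not higher, the 10 largest differences between the sexes, genes of neighbouring runs, and the nearest on each side of the 10-fold limit. Of the lists, examples were taken after values were seen. The members and lists were chosen with earlier results of these data known. Some members of the lists are counted and not reported here one by one.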

Additional observations from a re-analysis of the deposited data

Results flagged for a closer look

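In 48 of 409 groups of 7 values, or 11.7%, 1 library lay far from the other 6 by Dixon's ratio, on log2 CPM for genes; chance gives about 1 in 20. In many of them a gene was near the floor, with counts in 1 library and none in the other 6. In muscle, such single libraries were, in CPM, Ambp at 0.0407 in mouse 5, Apob at 0.0407 in mouse 5, Clec4f at 0.0400 in mouse 7, Cps1 at 0.149 in mouse 2, Cyp1a2 at 0.0720 in mouse 4, Cyp2a22 at 0.0372 in mouse 2, Fga at 0.0288 in mouse 8, Fgb at 0.372 in mouse 2, Fgg at 0.160 in mouse 7, Hao2 at 0.144 in mouse 4, Hnf4a at 0.0799 in mouse 7, Lrat at 0.0372 in mouse 3, Mat1a at 0.0372 in mouse 3, Mup1 at 0.0799 in mouse 7, Rassf6 at 0.248 in mouse 6, Serpina1c at 0.479 in mouse 7 and Tat at 0.142 in mouse 6. In cortex, such single libraries were, in CPM, C9 at 0.0335 in mouse 2, Cyp1a2 at 0.0343 in mouse 5, Cyp2a22 at 0.0168 in mouse 2, Cyp2d9 at 0.0594 in mouse 6, Cyp7a1 at 0.0192 in mouse 4, Fgg at 0.0520 in mouse 8, G6pc at 0.0168 in mouse 2, Hnf4a at 0.0180 in mouse 7 and Serpina1c at 0.0343 in mouse 5. In liver, such single libraries were, in CPM, Pnlip at 0.0753 in mouse 2.

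Other genes had a library apart while some of the other 6 also held counts, at levels from near the floor upwards. In liver, they were, in CPM, Cyp2d9 at 1413 in mouse 2 (others 1947 to 2453), Cyp8b1 at 162 in mouse 3 (others 252 to 322), Gm44686 at 0 in mouse 3 (others 0.524 to 1.62), Mat2a at 60.9 in mouse 8 (others 75.6 to 88.4), Mup1 at 2464 in mouse 3 (others 32.9 to 139), Mup10 at 155 in mouse 6 (others 3.54 to 9.87), Mup19 at 16.4 in mouse 3 (others 1711 to 3798) and Stab2 at 88.8 in mouse 4 (others 75.6 to 79.3). In muscle, they were, in CPM, Apoe at 101 in mouse 8 (others 183 to 274), Ces3a at 0.149 in mouse 2 (others 0 to 0.0400), Slc16a1 at 45.96 in mouse 2 (others 29.5 to 34.6) and Vwf at 25.4 in mouse 3 (others 18.03 to 20.8). In cortex, they were, in CPM, Apoa5 at 0.0511 in mouse 3 (others 0 to 0.0168), Derl3 at 2.401 in mouse 3 (others 1.17 to 1.58), Elovl3 at 0.158 in mouse 6 (others 0 to 0.0341), Mat1a at 0.187 in mouse 3 (others 0 to 0.0396) and Slc37a4 at 12.97 in mouse 5 (others 14.9 to 16.4). For the lymphocyte marker sum in muscle, mouse 3 was highest at 15.8 CPM, against 5.17 to 8.29 in the others. For the skeletal muscle fibre marker sum in cortex, mouse 5 was lowest at 49.95 CPM, against 69.7 to 87.9 in the others. For the adipocyte marker sum in cortex, mouse 5 was highest at 1.85 CPM, against 1.06 to 1.32 in the others. For the number of genes with a count in liver, mouse 2 was highest at 21650, against 19488 to 20414 in the others.

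Between the sexes, the contrast of liver with muscle differed by the interaction test in edgeR, as female minus male on the log2 scale (± SE): -8.45 ± 0.46 for Elovl3, -7.73 ± 2.28 for Mup21, -9.47 ± 2.41 for Nat8f5, 6.52 ± 0.43 for Cux2, 6.90 ± 2.04 for Cyp2a22, 6.35 ± 0.45 for Mt1, -5.91 ± 0.60 for Zfp992, -4.64 ± 1.35 for Gm4956, 7.67 ± 1.94 for Hao2 and -4.44 ± 0.45 for Lama3. Muscle held no count of Mup21 and Nat8f5 in males and of Cyp2a22 and Hao2 in females, so these 4 fitted values depend on the prior count and are neither exact differences nor bounds. Sex cannot be told apart here from the strain, age or schedule of the females, which are not given. The cortex library of AL male mouse 1, not used here in the main comparison, had 10219 counts of Xist and 0 of Ddx3y, against 0 to 25 of Xist in the other male libraries.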

How the results depend on the processing

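The counts of genes higher and lower in liver than in both, than in muscle and than in cortex, of the 10-fold set, of females, of IF males and of the sexes stayed within 1.5 times, and the read share within 1 SD, of the values given in the alternatives run for each, except with library size alone in place of TMM. There the genes higher in liver than in cortex numbered 4665 against 7312, and the read share of the 10-fold set was 38.4% against 41.6%. That scaling also gave 3862 genes higher and 5880 lower in both, 12011 lower than cortex, 3007 with all livers above and 3768 with all below the other libraries, and moved the median of all genes by 0.15 against muscle and -0.85 against cortex. Upper quartile factors moved the median against cortex by 0.16 and no filter by -0.16. Leaving out each number in turn gave 4959 to 5045 genes higher in both, 5033 to 5155 lower, 7308 to 7399 higher than muscle, 7061 to 7230 higher than cortex, 1441 to 1466 in the 10-fold set and a read share of 41.4% to 42.1%. The counts lower than muscle or cortex, the counts without overlap (with library size alone only) and the list counts were added to the alternatives after seeing the data; neighbouring runs, promoter shares and paired enzyme forms were not recomputed.

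Members higher in liver than in both stayed within 1.5 times in all 37 lists under every alternative. Members at least 10-fold higher did not for bile duct markers (1 against 3) and erythrocyte markers (1 against 0) with library size alone, erythrocyte markers without mouse 2 (1) and lymphocyte markers without mouse 3 (1 against 0). Members lower in both moved further for the respiratory chain (7) with library size alone (12) and a 2-fold minimum (3), neurons (4) with pairs of tissues fitted alone (2), and in some alternatives for lists with at most 2 lower members: P450 genes, microglia, oligodendrocyte, stellate cell and complement.

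Without the replicate block, 5209 genes were higher in both, 5341 lower, 7706 higher than muscle, 7472 higher than cortex and 1423 in the 10-fold set; females gave 5168, IF males 4885 and the sexes differed in 1644. Not every pair of libraries with the same number deviated together: the correlation of deviations ran from -0.13 to 0.10 for liver and cortex, -0.0663 to 0.12 for liver and muscle and -0.0549 to 0.28 for muscle and cortex. It was over 0.1 in 1 of 7 numbers for liver and cortex, 1 for liver and muscle and 2 for muscle and cortex, and a library correlated best with its own number in 1, 1 and 3 of 7. The fit with all 8 males gave 5144 higher; its cortex library of mouse 1 carries Xist against its male label.

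Over 119 named genes, 2812 of 2854 values kept their direction and side of the threshold and 32 turned direction, 26 of these without passing the test in either fit. In all, 3 values no longer passed, 12 newly passed and 1 passed in the opposite direction. With library size alone, no longer passing were Acat1 against muscle (-0.16), Bckdha against cortex (-0.24) and Slc16a1 against muscle (-0.20), newly passing were Cox6a1 against cortex as lower (-0.59), Cox7a2 against cortex as lower (-0.78), Ddx3y against muscle as higher (0.30), Glul against cortex as lower (-1.03), Mat2a against cortex as lower (-0.82), Phkg2 against cortex as lower (-0.79) and Pltp against cortex as lower (-1.21), and Slc16a1 against cortex went from higher to lower. Newly passing elsewhere were Pltp against cortex in 4 alternatives and Cox6a1 against cortex as higher (0.39) with mouse 4 left out. Turned log2 differences were as follows. With DESeq2, they were -0.0115 for Bcat2 against muscle, -0.00496 for Eno1 against muscle and -0.0135 for Mat2a against cortex. With RLE size factors, they were -0.0115 for Bcat2 against muscle, -0.00502 for Eno1 against muscle and -0.0138 for Mat2a against cortex. With all 8 males, they were 0.0152 for C7 against cortex. With library size alone, they were -0.24 for Bckdha against cortex, 0.0145 for C1qb against muscle, -0.59 for Cox6a1 against cortex, -0.78 for Cox7a2 against cortex, -0.82 for Mat2a against cortex, -0.79 for Phkg2 against cortex and -0.43 for Slc16a1 against cortex. With no replicate block, they were -0.0301 for C1qa against muscle and 0.0567 for C7 against cortex. With each number left out in turn, the values ran from -0.0834 to 0.0832 for Bcat2 against muscle, -0.12 to 0.16 for C1qa against muscle, -0.0635 to 0.20 for Cox7a2 against cortex, -0.0672 to 0.10 for Eno1 against muscle, -0.0685 to 0.0998 for Mat2a against cortex, -0.0206 to 0.15 for Phkg2 against cortex and -0.21 to 0.62 for Slc51a against muscle.

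Depth limits genes with few counts outside liver, whose folds are bounds or carry wide intervals. The cause of these shifts was not tested.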
